A study of Caenorhabditis elegans with 8 samples.

Results

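The glutathione S-transferase genes, named gst, and the UDP-glucuronosyltransferase genes, named ugt, were followed in polyadenylated RNA of whole young adult Caenorhabditis elegans. Members were all rows of the deposited tables whose gene name begins with gst- or ugt-, which gave 44 gst and 65 ugt genes, 109 of 20541 genes in all. No measured value was used to choose them, although gst-10, ugt-63 and ugt-64 were singled out with earlier results of these data known. The 2 strains were N2, the wild type, and HC125, read here as the strain that carries the transgene Psid-1::gfp, in which the sid-1 promoter drives green fluorescent protein. The labels list no other allele, treatment or agent for either strain, and both were staged by a timed egg lay. There were 4 libraries of each strain. Replicates 1 and 2 were paired-end libraries without strand information and replicates 3 and 4 were single-end stranded libraries from another kit. Whether the replicates were separate cultures is not said, so p-values from the authors rest on a spread between libraries that may be technical.

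Both families attach a water-soluble group to small molecules so that these can be excreted. Glutathione S-transferases join the tripeptide glutathione to reactive electrophiles such as products of lipid oxidation, and the transcription factor SKN-1 is known to drive several of their genes in the worm intestine. UDP-glucuronosyltransferases are membrane enzymes of the endoplasmic reticulum that pass a sugar from a UDP-sugar to toxins, steroids and other lipophilic compounds, and in worms the sugar is often glucose. In C. elegans many genes of both families lie in tandem arrays that arose by duplication.

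The measurement is FPKM, sequenced fragments corrected for transcript length and library size, given by the authors as 1 value per gene, strain and experiment that combines the libraries. A spread between libraries therefore cannot be printed, and the depth is unknown. A strain ratio is given with an implied error, obtained by dividing its log2 by the test statistic that the authors deposited. The authors' test was completed for 95 of the 109 members with paired-end and for 82 with single-end libraries, 81 of them in both. The other members were marked as too low to test, and 13 of these had no completed test in either experiment. Genes with a q of 0.05 or below in the deposited table are termed called. An arrow leads from the N2 value to the HC125 value, and where 2 such pairs follow each other the paired-end pair comes first.

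In N2, the gst family was led by a few abundant genes. gst-1, a Pi-class enzyme, was at 234.5 FPKM with paired-end and 387 FPKM with single-end libraries. gst-7, a target of SKN-1, was at 195 and 280 FPKM. These 2 genes held the first and second place of the family in both tables, and each stood above at least 96.2% of all genes listed in either. gst-27 (100 and 80.7 FPKM), gst-13 (103 and 64.9 FPKM), gst-10 (85.2 and 76.8 FPKM) and gst-26 (63.5 and 96.6 FPKM) formed the next group, whose order changed between tables. gst-36 (64.02 and 25.5 FPKM), which was just above gst-26 in the paired-end table, and gst-5 (49.3 and 34.5 FPKM) followed. gst-4, whose promoter is the common reporter of SKN-1 activity, was at 41.5 and 27.4 FPKM. It was below gst-5 in both tables, and below gst-36 in the paired-end table only. gst-42, of the Zeta class that acts in tyrosine breakdown, was at 40.0 and 20.8 FPKM. The 3 most abundant members made up 45.9% of the family's summed FPKM with paired-end and 65.1% with single-end libraries. The family's median was 3.37 and 1.497 FPKM, 31 and 26 of 44 members reached 1 FPKM, and 12 stayed below 1 FPKM in both strains and both experiments. At the low end, gst-37 was listed at 0 in both strains of the paired-end table and at 0.0302 FPKM in N2 of the other, and gst-14 was listed at 0 in N2 of the single-end table.

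Compared with the gst family, the ugt family held less of its summed FPKM in its 3 highest members. ugt-22 led it in both experiments, at 238 and 37.9 FPKM in N2, followed in the paired-end experiment by ugt-62 (90.3 and 19.3 FPKM), ugt-47 (61.7 and 8.65 FPKM), ugt-46 (57.9 and 14.2 FPKM) and ugt-64 (54.9 and 13.7 FPKM). ugt-12 was at 46.2 and 15.2 FPKM, ugt-63 at 34.0 and 22.9 FPKM, and ugt-58 at 33.7 and 9.48 FPKM. In the single-end table ugt-63 took the second place of the family, from place 8 in the paired-end table, and ugt-47 moved from place 3 to place 10. The top 3 members held 35.7% of the family's summed FPKM with paired-end and 27.0% with single-end libraries, a smaller share than among gst genes in both. These shares make no allowance for family size, 65 ugt against 44 gst genes. The median over the 65 members was 5.87 and 1.59 FPKM, 50 and 42 reached 1 FPKM, and 13 stayed below 1 FPKM throughout. Over all 20541 genes the N2 median was 3.28 and 1.67 FPKM, and 61.6% and 54.9% reached 1 FPKM, against 70.5% and 59.1% of gst and 76.9% and 64.6% of ugt genes. No error is attached to a level, so neighbours in these orders cannot be told apart from the tables alone.

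**Figure D1:**
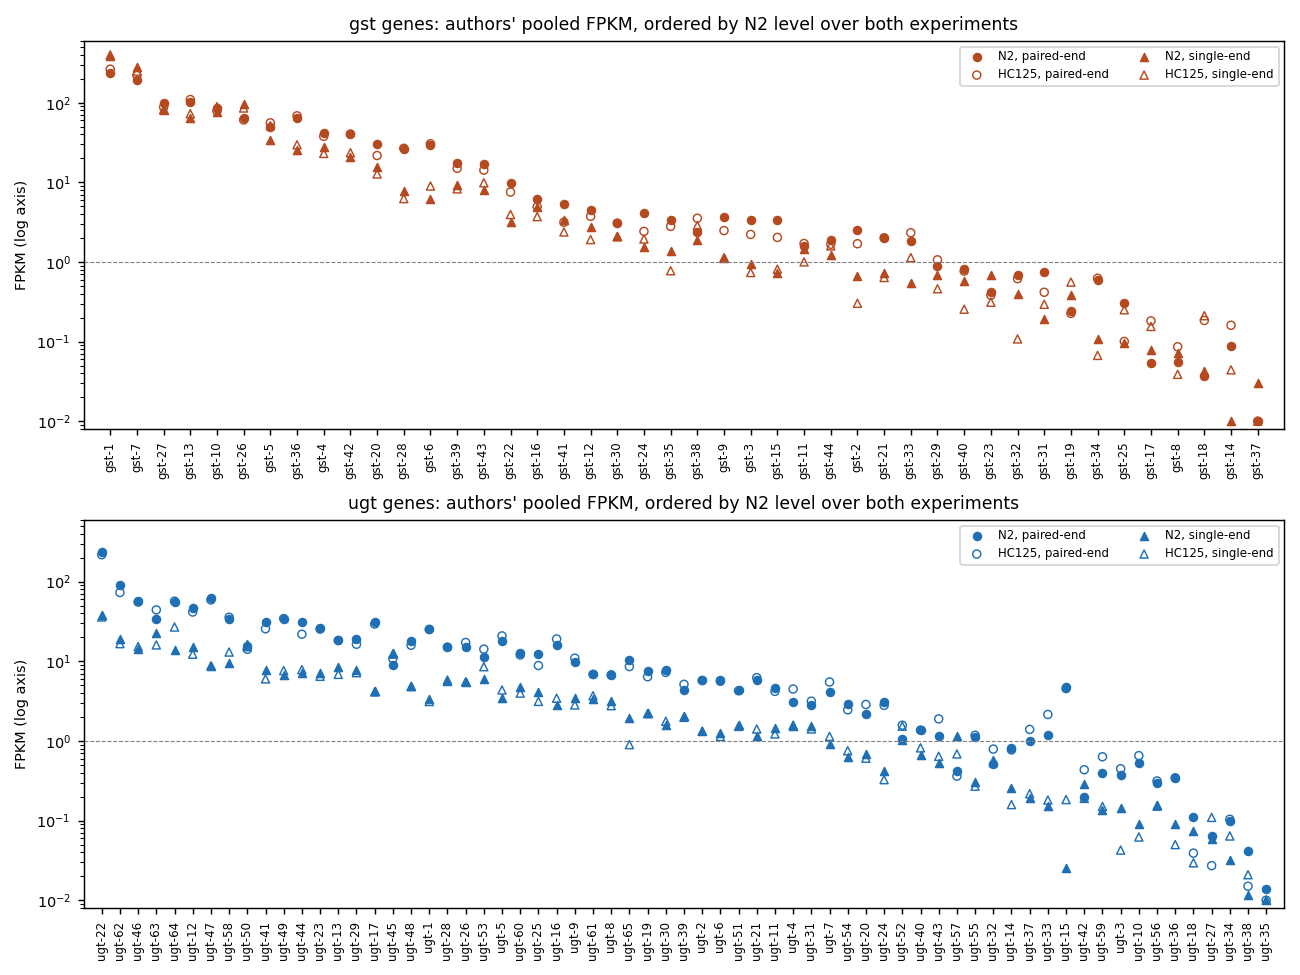
FPKM (log axis) of the 44 gst genes (upper panel) and the 65 ugt genes (lower panel), ordered from left to right by the geometric mean of both N2 values. Filled symbols are N2 and open symbols HC125, circles are the paired-end and triangles the single-end experiment, each symbol is 1 pooled value, values under 0.01 including those listed at 0 are drawn at 0.01, and the dashed line marks 1 FPKM; the strains nearly coincide at high levels, while the triangles lie below the circles for most ugt genes.

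The order of the members was close to the same in both strains. Spearman's rho of FPKM between N2 and HC125 was 0.983 and 0.979 over the 44 gst genes and 0.995 and 0.986 over the 65 ugt genes, in the paired-end and single-end experiment. Between the 2 tables, the rho of the N2 values was 0.971 for gst and 0.931 for ugt genes. Genes are not replicates, so these correlations only describe the order, and values of 1 table share libraries.

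The balance of the families differed between the 2 experiments, in both strains alike. In the paired-end experiment the summed FPKM of the gst genes was 1.06 times that of the ugt genes in N2 and 1.13 times in HC125. With single-end libraries it was 3.95 and 3.98 times. The gst sum was nearly the same in both tables (1160 and 1173 FPKM in N2), while the ugt sum was 1091 FPKM in the paired-end and 297 FPKM in the single-end table. Higher single-end values of gst-1, gst-7 and gst-26 entered that gst sum. The other 23 of 26 gst genes at 1 FPKM or more in both tables were lower there. In N2, ugt genes made up 0.116% of the summed FPKM of all genes in the first and 0.0277% in the second, and gst genes 0.123% and 0.109%. No gst gene exceeded the highest ugt gene in N2 of the paired-end table, whereas 6 did in the single-end table.

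Gene by gene, the single-end value of N2 was a median 0.298 times the paired-end value over the 41 ugt genes at 1 FPKM or more in both tables, and was lower for 39 of them. Over 26 gst genes the median was 0.628, with 23 lower. Over all 10902 such genes it was 0.688, and 71.0% were lower. The tables were normalized separately, so these are ratios of values set across them and not changes in RNA. The families differ in length, with a median exon length of 736.5 bases for gst and 1708 bases for ugt genes in the annotation. Among all other genes between the quartiles of the ugt lengths (1668 to 1779 bases, 437 genes) the median was 0.571, and among those between the quartiles of the gst lengths (445 genes) it was 0.941. Both families thus lay below genes of like length, a description to which no test was applied. HC125 gave 0.320 for ugt and 0.669 for gst genes. In the annotation, exons of 19 members overlap exons of a gene on the other strand, where the unstranded paired-end values can mix both genes. Without these members the N2 medians were 0.324 for ugt and 0.628 for gst genes. ugt-22, whose exons share 317 bases with the other strand, had a ratio of 0.159, and ugt-47 one of 0.140. The part of kit, read layout and strand in these ratios was not tested.

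**Figure D2:**
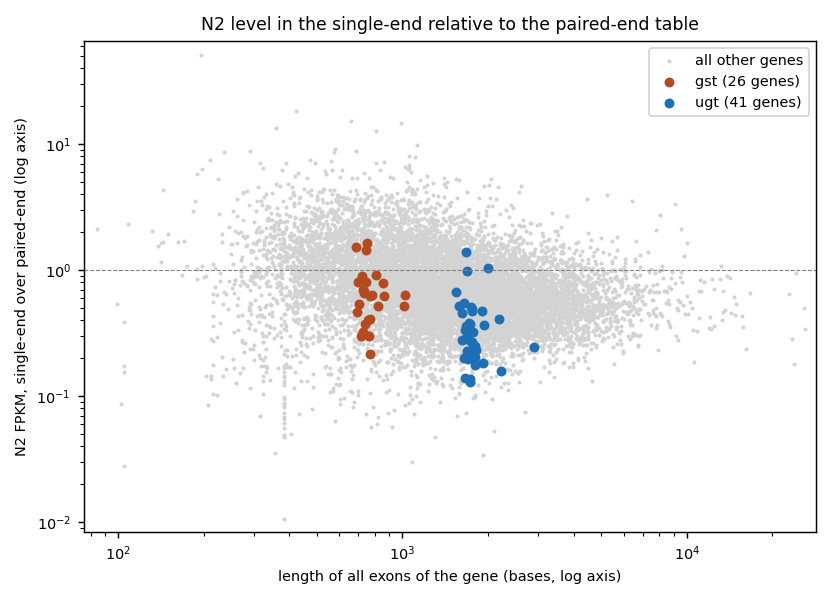
N2 FPKM in the single-end table divided by that in the paired-end table (log axis) against the summed exon length of the gene in bases (log axis), for genes at 1 FPKM or more in both tables. Red points are 26 gst genes, blue points 41 ugt genes and grey points all other genes, and the dashed line marks equal values; 39 of the 41 ugt genes and 23 of the 26 gst genes lie below it.

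Between the strains, the median difference of each family lay near that of all genes. On the scale of log2(FPKM + 1), the median difference of HC125 minus N2 was -0.12 over 31 gst genes and -0.02 over 51 ugt genes at a mean of 1 FPKM or more in the paired-end experiment. With single-end libraries it was 0.01 over 26 gst genes and -0.03 over 42 ugt genes. The same median over all genes at that level was -0.03 and -0.04, and centring on it turned the sign of both ugt medians, to 0.015 and 0.010. Without a filter on low values the single-end gst median was -0.0078. The quartiles of the gst values ran from -0.31 to 0.06 and from -0.26 to 0.22, and that of the ugt values from -0.11 to 0.19 and from -0.14 to 0.10. Among tested members, 13 of 37 gst and 28 of 58 ugt genes were higher in HC125 in the paired-end experiment, against 41.7% of all tested genes. With single-end libraries 17 of 34 gst and 21 of 48 ugt genes were higher, against 40.0%. The summed FPKM of HC125 was 1.02 and 1.01 times that of N2 for gst genes, and 0.960 and 0.999 times for ugt genes.

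No member was called in both experiments. In the paired-end experiment none of the 95 tested members was called in the authors' deposited table, where 0.212% of 15114 tested genes were, and no member reached a p under 0.05 before adjustment, where 1.28% of all tested genes did. With single-end libraries 1 of 82, ugt-64, was called, against 0.122% of 13150 genes. Without adjustment, 5 ugt genes and no gst gene had a p under 0.05 there, which is 10.4% of the 48 tested ugt genes against 2.39% of all tested genes; 3 of the 5 were higher and 2 lower in HC125. Of 12954 genes tested in both tables, 0.0386% were called in both with the same direction. Combining the p-values of the tables by Stouffer's method called none of the 81 members (0.27% of all genes). Of the 81, 3 members, ugt-64, ugt-53 and ugt-65, had an unadjusted p under 0.05, against 1.75% of all genes. limma on the 4 pooled values, with the experiment as a block, also called none at an adjusted p of 0.05 (0.0386% of all genes), and 13 members had an unadjusted p under 0.05, against 6.8%. That fit rests on 1 residual degree of freedom per gene before moderation.

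The implied errors leave room for sizeable differences. The median standard error of a log2 ratio was 0.84 for gst and 0.60 for ugt genes in the paired-end experiment, and 0.66 and 0.37 with single-end libraries. The 95% interval of the ratio lay wholly between 0.5 and 2 for 6 of 37 gst and 9 of 58 ugt genes in the first, and for 9 of 34 and 21 of 48 in the second. For gst-1 it ran from 0.733 to 1.44 and for gst-7 from 0.634 to 1.25 with single-end libraries. ugt-22 had the narrowest interval of any member there, 0.837 to 1.08, around values of 37.9 FPKM in N2 and 36.0 FPKM in HC125. Its p of 0.679 in the authors' deposited table corresponds to a larger error, so this interval may be too narrow. For gst-9 and ugt-59, implied errors of 4.13 and 6.56 in the paired-end experiment leave their ratios undetermined.

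ugt-64 (WBGene00015577) was the member called. It lies on chromosome V from 3503130 to 3506352. Its level was 54.9 → 56.8 FPKM in paired-end and 13.7 → 26.9 FPKM in single-end libraries. The strains were thus nearly level in the first and differed 1.96-fold in the second. The 95% interval of the ratio ran from 1.31 to 2.95 in the single-end and from 0.596 to 1.80 in the paired-end experiment. In the authors' deposited tables it had p = 5e-05 with q = 0.0411, and p = 0.852. The log2 ratio was higher by 0.92 ± 0.51 (implied SE) with single-end libraries (z test from both implied errors, adjusted p = 1.00 over 12921 genes), so the experiments were not shown to differ. In the annotation its exons share 72 bases with C07G3.10 on the other strand. At the deposited positions the 2 genes do not overlap and lie 53 bases apart. Within 60 kb of ugt-64, none of 9 and 8 tested genes was called, and 1 in each table had an unadjusted p under 0.05. That was the lysozyme gene lys-7, 20530 bases away, at 106 → 65.3 FPKM and 107 → 77.6 FPKM, with p = 0.0312 and p = 0.0154 and a q of 1.00 in both of the authors' deposited tables. gst-33, 34629 bases away, was at 1.84 → 2.33 FPKM and 0.539 → 1.13 FPKM, with p = 0.591 and p = 0.138 in the authors' deposited tables.

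ugt-63 (WBGene00015449) is close to sid-1, the gene of a double-stranded RNA channel whose promoter the transgene uses. It lies on chromosome V from 5108015 to 5110789, 708 bases from C04F5.8 and 9181 bases from sid-1. Its level was 34.0 → 44.2 FPKM in paired-end and 22.9 → 16.1 FPKM in single-end libraries. HC125 was the higher strain in the first table and the lower in the second. The log2 ratio was 0.38 ± 0.42 and -0.51 ± 0.29 (implied SE), and the 95% interval of the ratio ran from 0.730 to 2.31 and from 0.473 to 1.04, with p = 0.209 and p = 0.0140 in the authors' deposited tables. With the error that this p implies, in place of the test statistic, the single-end interval excludes 1. C04F5.8, next to it, fell in both tables, at 60.8 → 11.2 FPKM and 47.0 → 11.3 FPKM. C04F5.9, 3956 bases away, also fell, at 32.6 → 6.26 FPKM and 10.2 → 1.98 FPKM, as did sid-1 itself, at 31.9 → 2.11 FPKM and 12.9 → 0.818 FPKM (q = 0.0270 and q = 0.0411 for each of the 3 genes in the authors' deposited tables). They were the 3 called in each table among 15 tested genes within 60 kb. The median log2 ratio of those 15, called genes included, was -0.0071 and -0.52. With single-end libraries the uncalled ones ran from -0.99 for F14F9.5 to 0.25 for glb-32. Of the tested genes, 3 and 4 had an unadjusted p under 0.05. The uncalled gene among them was F14F9.5, at 4.21 → 2.85 FPKM and 2.14 → 1.07 FPKM, with p = 0.300 and p = 0.0356 in the authors' deposited tables. The log2 ratio of ugt-63 was lower by 0.89 ± 0.51 with single-end libraries (z test, adjusted p = 1.00), which does not show that the experiments differ.

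gst-10 (WBGene00001758), which is known to act on the lipid oxidation product 4-hydroxynonenal, lies on chromosome V from 2561690 to 2564708. Its level was 85.2 → 78.4 FPKM in paired-end and 76.8 → 89.2 FPKM in single-end libraries. It took place 5 of the gst family in both tables, and all 4 values lay within a narrow range. The ratio was 0.920 (95% interval 0.502 to 1.69) and 1.16 (0.794 to 1.70), with p = 0.696 and p = 0.277 in the authors' deposited tables. Within 60 kb, none of the 8 and 7 tested genes was called or had an unadjusted p under 0.05. Among gst-10, ugt-63 and ugt-64, gst-10 had the highest level in N2 of both tables.

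The other 3 members below a single-end p of 0.05 had the same direction in both experiments. ugt-53 was at 11.4 → 14.2 FPKM and 5.91 → 8.56 FPKM (p = 0.426 and p = 0.0348 in the authors' deposited tables). ugt-58 was at 33.7 → 35.8 FPKM and 9.48 → 13.1 FPKM (p = 0.775 and p = 0.0430). ugt-65 was lower in HC125, at 10.5 → 8.59 FPKM and 1.92 → 0.899 FPKM (p = 0.516 and p = 0.0208). Their q was 1.00 in both tables, and the 95% interval of the ratio on the implied error included 1 for each, at 0.887 to 2.36, 0.921 to 2.07 and 0.195 to 1.13 with single-end libraries. With errors taken from these single-end p-values, all under 0.05, the 3 intervals would leave out 1, as for ugt-63.

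**Figure D3:**
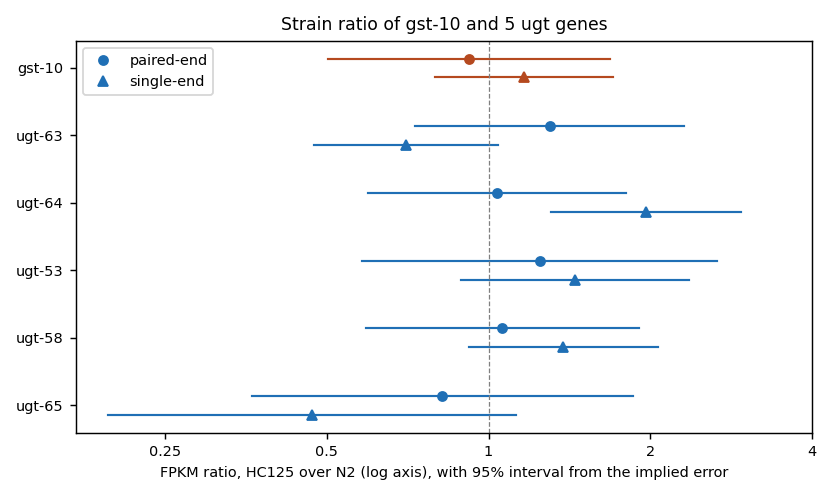
FPKM ratio of HC125 over N2 (log axis) of gst-10, ugt-63, ugt-64, ugt-53, ugt-58 and ugt-65, with 95% intervals from the implied error. Circles are the paired-end and triangles the single-end experiment, red is gst and blue ugt, and the dashed line marks equal levels; the single-end interval of ugt-64, 1.31 to 2.95, is the one that leaves out 1.

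The 3 highest and 3 lowest ratios of each family and table were also taken, among tested members at 1 FPKM or more in both strains. Among gst genes, gst-38 was highest in HC125 relative to N2 in both tables, at 2.36 → 3.54 FPKM and 1.87 → 2.86 FPKM, with log2 ratios of 0.59 ± 0.90 and 0.61 ± 0.74 (implied SE). gst-5 had ratios of 1.13 and 1.49, gst-33 one of 1.27 with paired-end and gst-6 one of 1.44 with single-end libraries. On the low side, gst-41 was at 5.37 → 3.15 FPKM and 3.35 → 2.38 FPKM, with ratios of 0.587 and 0.711. gst-24 and gst-15 were among the lowest of the paired-end experiment, at ratios of 0.583 and 0.603, but stood at 1.27 and 1.11 with single-end libraries. gst-12 and gst-11 were lowest there, at 0.686 and 0.687. The authors' p for these gst genes was 0.134 or more in both tables.

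Among ugt genes, ugt-33, ugt-43 and ugt-52 had the highest ratios of the paired-end experiment, 1.82, 1.65 and 1.48, at 1.07 to 1.18 FPKM in N2. ugt-52 was also among the highest of the single-end experiment, at 1.47, where ugt-33 was too low to test. ugt-25 was low in both, at 12.4 → 8.85 FPKM and 4.16 → 3.14 FPKM, with ratios of 0.713 (0.327 to 1.55) and 0.754 (0.477 to 1.19). ugt-44 (0.703 and 1.09) and ugt-62 (0.810 and 0.864) were the other low ones of the paired-end table, and ugt-63 (0.702 there) and ugt-41 (0.822 and 0.766) those of the single-end table. Every interval of these genes included 1 in each experiment in which it was tested.

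Ratios of the same member were weakly related between experiments. Of the members tested in both, 21 of 33 gst and 34 of 48 ugt genes had the same sign in both experiments, 67.9% of the 81, against 55.0% of 12921 genes. Pearson's r of the log2 ratios was 0.326 over gst, 0.364 over ugt and 0.194 over all genes, and Spearman's rho 0.282, 0.422 and 0.0878, again across genes. The experiments have no library in common. A difference between experiments was not shown for any member (z test from the implied errors, adjusted over 12921 genes, of which 0.00774% passed). None had an unadjusted p under 0.05, against 0.317% of all genes, and with errors this wide the test passes few genes. The median absolute log2 ratio of tested gst genes was 0.13 under 1 FPKM, 0.37 at 1 to 10 FPKM and 0.13 at 10 FPKM or more in the paired-end experiment, and 0.56, 0.40 and 0.18 with single-end libraries. For ugt genes it was 0.32, 0.17 and 0.15, then 0.25, 0.14 and 0.21, and for all genes 0.39, 0.18 and 0.09, then 0.40, 0.20 and 0.09. Over all genes it was thus smaller at each higher level, which did not hold for gst genes in the paired-end or ugt genes in the single-end table.

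**Figure D4:**
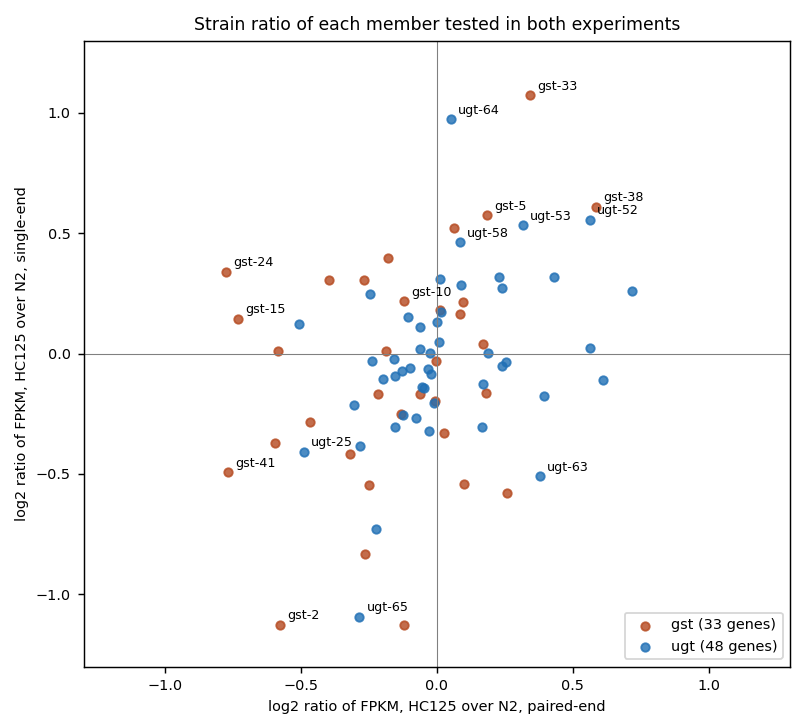
log2 ratio of FPKM of HC125 over N2 in the single-end (vertical) against the paired-end experiment (horizontal), for the 33 gst genes (red) and 48 ugt genes (blue) tested in both. Each point is 1 gene, and 55 of the 81 lie in the lower left or upper right part; ugt-64 lies near 0 on the horizontal axis and at 0.97 on the vertical one, and ugt-63 at 0.38 and -0.51.

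On the chromosomes the families are arranged differently. Of the gst genes 25 lie on chromosome II and 9 on V, and of the ugt genes 41 lie on V and 12 on IV. With neighbours at most 20 kb apart, 25 gst genes form 4 clusters and 36 ugt genes form 11. Within a cluster, levels varied widely. In the gst cluster on chromosome II from 13608185 to 13630887 (9 genes), N2 ran from 0.0374 to 30.01 FPKM in the paired-end table, where 4 genes, gst-14, gst-17, gst-18 and gst-19, were too low to test. In that from 15163808 to 15185385 (9 genes, with gst-26 and gst-27 at one end) it ran from 0.594 to 100 FPKM. In the largest ugt cluster, on chromosome V from 4887173 to 4911458 (7 genes), it ran from 0.523 FPKM for ugt-10 to 46.2 FPKM for ugt-12. The 6 genes of the ugt cluster from 7139483 to 7169205 ran from 0.0409 FPKM for ugt-38 to 31.2 FPKM for ugt-41.

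In the first gst cluster all 5 tested genes were lower in HC125 in the paired-end experiment, with log2 ratios from -0.78 to -0.25, but 3 of 6 were higher with single-end libraries. In the gst-2, gst-3 and gst-4 cluster of chromosome IV all 3 were lower in both, from -0.59 to -0.13 and from -1.13 to -0.25. In the largest ugt cluster 2 of 7 were higher in the paired-end experiment, and all 5 tested genes were lower with single-end libraries, from -0.32 to -0.21. In the authors' deposited tables no gene of any cluster was called or had a p under 0.05. Near copies can share reads, and gst-17 and gst-18 share 351 bases of exon on the same strand in the annotation. At the deposited positions these 2 genes do not overlap, since gst-17 ends at 13628798 and gst-18 starts at 13629799. ugt-37 and ugt-40 are listed over the same interval. In the annotation each has 42 bases of exon overlap on the same strand, of 1735 and 1730 exon bases. The split of reads between them was not tested.

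**Figure D5:**
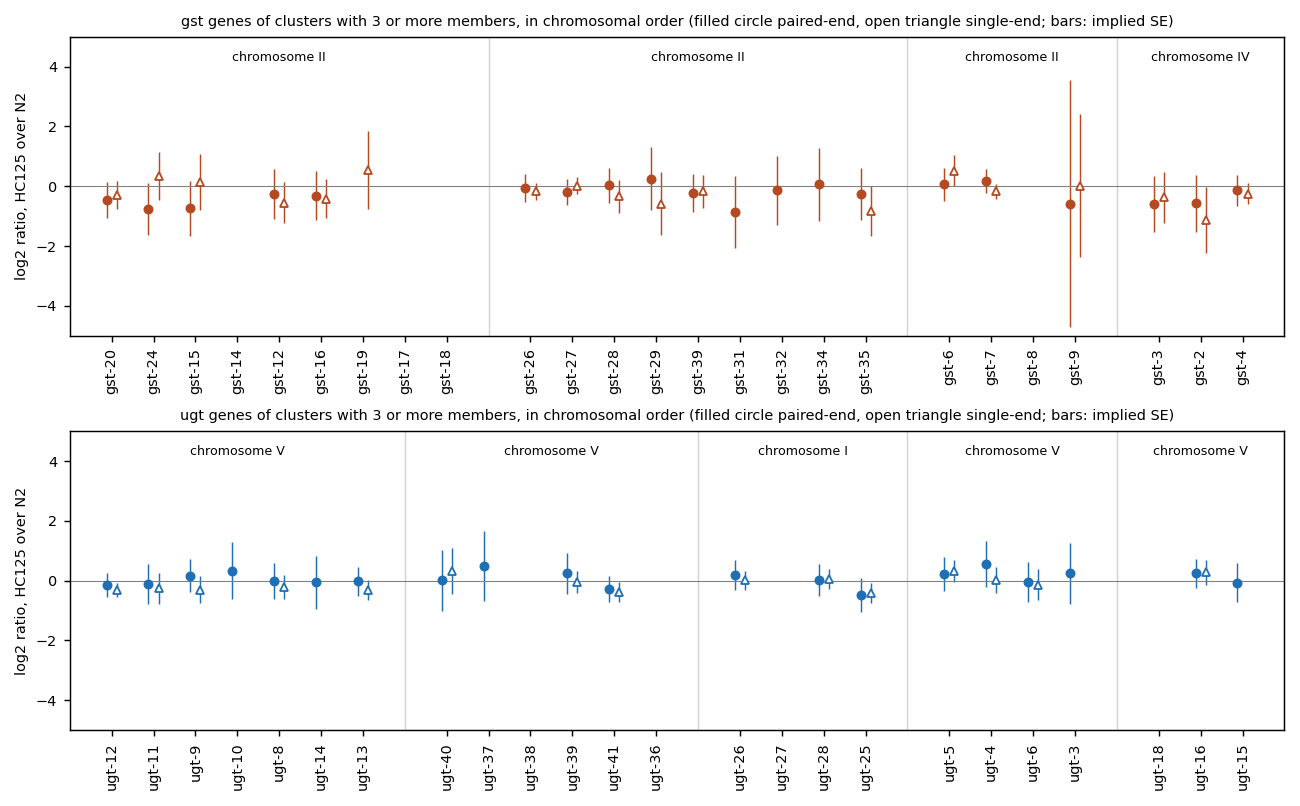
log2 ratio of HC125 over N2 of tested gst genes (upper panel) and ugt genes (lower panel) in clusters with 3 or more members, in chromosomal order, with vertical grey lines between clusters. Filled circles are the paired-end and open triangles the single-end experiment, bars are ± 1 implied SE, and a gene with no symbol was too low to test; most bars cross 0 and the bars of gst-9 are the longest.

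Genes that supply or follow the 2 families are given by list, and none of them was called in both tables. Of 22 genes of glutathione supply and other glutathione enzymes, 21 and 20 were tested and none was called; 7 and 9 were higher in HC125, with a median of -0.04 on the log2(FPKM + 1) scale in both experiments. gsr-1, glutathione reductase, was at 133 → 145 FPKM and 157 → 148 FPKM, and the glutaredoxin gene glrx-10 at 126 → 118.7 FPKM and 426 → 455 FPKM. Of the 4 genes of UDP-sugar supply none was called. sqv-4, the dehydrogenase that makes UDP-glucuronic acid, was at 184 → 199 FPKM and 144 → 144 FPKM, and sqv-1, which turns that sugar into UDP-xylose, at 120 → 120 FPKM and 65.7 → 65.5 FPKM. Of 15 regulators found none was called, with medians of -0.11 and -0.02. skn-1 was at 123 → 111 FPKM and 67.0 → 64.3 FPKM, and daf-16, the FOXO factor of insulin signalling, at 90.7 → 77.1 FPKM and 52.7 → 47.2 FPKM. Of 22 export pumps found, 21 and 18 were tested, of which 16 and 14 were lower in HC125, with medians of -0.11 and -0.09. The P-glycoprotein gene pgp-8 was called higher by single-end sequencing alone, at 0.685 → 2.96 FPKM and 0.136 → 0.874 FPKM, with a paired-end p = 0.0005 and q = 0.164 in the authors' deposited table. mrp-4 and mrp-5, the pumps of highest paired-end level in N2, were at 71.0 → 65.9 FPKM and at 47.1 → 40.3 FPKM there. These lists were chosen with earlier results of these data known.

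In whole worms, fewer cells of a type and less RNA per cell cannot be told apart, so markers of tissues are set beside the members. The summed FPKM of 12 intestine markers was 3998 → 3735 and 8317 → 7449, with 2 of 12 and 5 of 11 tested genes higher in HC125 and none called. For 7 hypodermis markers the sums were 1461 and 1421 FPKM, then 1620 and 1396 FPKM, most of it from the collagen gene col-19, with 4 of 7 and 1 of 6 tested genes higher and none called. Among the low ones, the collagen gene rol-6 was at 0.123 → 4.28 FPKM and 0.0782 → 0.671 FPKM (p = 0.0012 and p = 0.163 in the authors' deposited tables). dpy-7, also a collagen gene, was at 1.21 → 3.40 FPKM and 4.19 → 1.99 FPKM (p = 0.0092 and p = 0.0466 in the authors' deposited tables). The 7 sperm markers summed to 141.9 → 141.7 FPKM and to 28.1 → 43.0 FPKM in the single-end table, where 5 of 6 tested were higher. None of them was called, and 1, msp-142, had an unadjusted p under 0.05, while fog-1 and the untested spe-9 were lower. In the same table as ugt-64, unc-54, a myosin gene of body wall muscle, was also called, at 125 → 341 FPKM. The part of sperm and muscle in the ugt-64 difference was not tested. The 7 muscle markers summed to 1356 → 1246 FPKM and 1115 → 1412 FPKM, with 1 of 7 and 6 of 7 higher in HC125. Most of the single-end difference came from unc-54, and the other markers had a p of 0.317 or more in that deposited table of the authors. The pharyngeal myosin genes myo-1 (14.4 and 3.47 FPKM) and myo-2 (9.12 and 2.56 FPKM) were called lower in the paired-end experiment. With single-end libraries they were at 4.59 → 4.10 FPKM and 3.34 → 3.40 FPKM. No marker was listed at 0, and markers of every tissue list were found. Sums of 8 germline markers were 3107 and 3063 FPKM, then 3088 and 2903 FPKM, and those of 7 neuron markers 250 and 242 FPKM, then 126 and 139 FPKM.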

How the data were processed

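Polyadenylated RNA of whole young adults of N2 and HC125 was sequenced in 2 experiments, with 2 libraries per strain in each. Cufflinks 2.2.1 and TopHat2 2.0.1 are listed, per the submitters' processing notes, without order or settings, and the genome build is not given in the sources used here. Each experiment has 1 table, and its FPKM values were made by the authors as 1 value per strain, normalized for length and depth. Beside them the authors deposited a test statistic, which is a score, and its p-value and q-value, the latter adjusted over all tested genes. The tables give no depth, so no counting intervals are given.

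The implied standard error is the log2 ratio of FPKM divided by the test statistic, and 95% intervals and z tests rest on it with a normal approximation. They need not match the deposited p. For gst-10, ugt-63 and ugt-64 the implied errors were larger than those taken from the deposited p, at 0.281 against 0.199 for gst-10 with single-end libraries. Intervals on the implied error are then the wider ones. Medians of ratios use log2(FPKM + 1), which understates the change of low genes, over genes with a mean of 1 FPKM or more. Benjamini-Hochberg adjustment ran over all genes tested. limma 3.58.1 in R 4.3.3 was used on the 4 pooled values, and scipy 1.17.1 and pandas 2.3.3 for the rest. The calculations were tested on simulated data. Alternatives were other q thresholds, pseudocounts of 0.1 and 5, other filters on low values, centring on all genes, errors from the deposited p, and both experiments combined.

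Gene IDs matched the WBcel235 annotation for 20194 of 20541 genes and for all 109 members, which gave exon lengths and overlaps. Positions are those of the files, which count starts from 0, with 1 added, and 5 members have the same start and end as in that annotation. Ends of members differed by up to 12270 bases. Exon lengths and overlaps are those of that annotation and need not describe the gene models behind the FPKM. No sequence is printed.

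Members were taken by gene name alone, while gst-10, ugt-63, ugt-64 and the gene lists were chosen with earlier results of these data known. Named members were gst-10, ugt-63 and ugt-64, members called or with p under 0.05, the 8 of highest geometric mean N2 level per family, and the 3 highest and 3 lowest ratios per family and table. List genes were named where called or among the 2 highest in N2 of the paired-end table, and these need not be the highest in the single-end table. Other genes named were chosen after their values were seen, as were the ratios of single-end over paired-end FPKM.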

Additional observations from a re-analysis of the deposited data

How the results depend on the processing

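Of the 57 values recomputed under another setting, 51 stayed within the limits set for no change, but 3 of these, medians near 0, changed sign. They were the single-end gst median without a filter on low values (0.0091 to -0.0078) and the ugt medians centred on all genes (-0.020 to 0.015 paired-end, -0.032 to 0.010 single-end). The count of members called in the single-end experiment, 1 at a q of 0.05, was 0 at a q of 0.01. Restricting the N2 medians to members at 1 FPKM or more gave 9.94 and 7.92 FPKM for gst and 10.9 and 4.55 FPKM for ugt genes in the paired-end and single-end experiment, since low members are left out. The log2 ratio of ugt-63 in the single-end experiment, -0.51, had a 95% interval without 0 when its error was taken from the authors' deposited p (p = 0.0140), and with 0 when it was taken from the test statistic. No paired analysis was possible because each table holds 1 pooled value per strain, so that libraries with the same number cannot be matched; limma paired the strains by experiment only and called 0 members. For the same reason no library could be left out, and the spread between libraries and the depth limit what can be said of low members. Leaving out members with exon overlap on the other strand, and taking HC125 in place of N2, were chosen after seeing the data.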

Other observations

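ugt-15 had 4.75 FPKM (N2) and 4.54 FPKM (HC125) with paired-end libraries but 0.0251 and 0.183 FPKM with single-end libraries. In the annotation none of its exons overlaps an exon on the other strand. ugt-15 was picked out after its values were seen. The annotation names C23G10.6 as ugt-66 and H23N18.4 as ugt-67, but the tables list both by sequence name, so neither was counted among the 65 ugt genes. C23G10.6 had 1.45 → 1.11 FPKM (N2 → HC125) with paired-end and 0.394 → 0.227 FPKM with single-end libraries. For H23N18.4 these values were 0.417 → 0.504 FPKM and 0.0542 → 0.119 FPKM.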
